A study of Mus musculus with 36 samples.

Results

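The 83 most abundant transcripts of mouse blood stem cells and early progenitors are described here: how much of each library they took up, how stable they were between libraries, and how they differed between cell types and genotypes. They were chosen by their measured level, as the rows of the deposited transcript table with a mean of at least 1000 CPM (counts per 1000000 counts of a library) over 18 libraries. Of 138835 rows, 94 reached that level. From these, 11 were left out because they belong to a set of 41 listed identifiers, most of them one consecutive block, which leaves 83. The levels themselves are therefore given as a description, with no test. The files pair no transcript with a gene, so the transcripts carry only their Ensembl identifiers, and neither their function nor their position in the nuclear genome could be checked.

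The RNA came from hematopoietic stem cells (HSCs; negative for lineage markers, positive for cKit, Sca1 and CD150, negative for CD48) and from restricted progenitors (RPs; from the same gate, but labelled negative for CD150 and positive for CD48). All mice were C57BL/6, 8 weeks old, and carried Cre recombinase driven by Vav, which is active in blood-forming cells, the controls included. Controls had wild-type Dnmt3a and Tet2, Tet2KO mice had floxed Tet2 on both alleles, and Dnmt3aKO mice had floxed Dnmt3a, written in the labels as "fl/fl or +". There were 3 libraries each of Control HSC and Dnmt3aKO HSC, and 4 each of Tet2KO HSC, Control RP and Tet2KO RP. Each replicate was a pool of male and female mice, with pool sizes that differ within the labels, so p-values measure the spread between pools. Libraries were made with the SMARTer Ultra Low RNA kit from a few nanograms of total RNA.

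HSCs renew themselves and give rise to all blood cells, while progenitors just downstream divide more and have a narrower range of fates. DNMT3A adds methyl groups to DNA and TET2 oxidises them, and loss of either in blood-forming cells is known to alter stem cell renewal and differentiation. In any cell, a small number of transcripts yields a large share of the sequenced reads. Such transcripts set the scale on which all others are read, because a library is sequenced to a limited total.

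Libraries held 3721009 to 9366421 counts. HSC libraries are named by the number in their labels and RP libraries by the letters a to d, which are names only. At an equal depth of 3721009 counts, between 25496 and 44910 transcripts were detected per library. The 3 HSC libraries numbered 4 had 25496 to 33540 and the other 7 HSC libraries 33584 to 44049, so the libraries numbered 4 lay below the rest, 1 of them by a narrow margin. The RP libraries had 39880 to 44910. Neither the genotype nor the cell type of a library could be checked against Dnmt3a, Tet2 or marker transcripts, for want of gene names.

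The 83 transcripts together held 20.9% of all counts on average, with a range of 17.6% to 29.6% over the 18 libraries. The share was 19.1%, 20.3% and 26.1% in Control HSC 2, 3 and 4. It was 17.6%, 20.4% and 29.6% in Dnmt3aKO HSC 1, 2 and 4. In Tet2KO HSC 1 to 4 it was 18.7%, 19.6%, 18.6% and 22.4%. In all 3 HSC genotypes the library numbered 4 had the highest share of its group. Control RP a to d had 19.6%, 20.4%, 21.4% and 20.6%, and Tet2KO RP a to d had 19.95%, 19.7%, 19.6% and 22.6%. The group means were 21.8% ± 3.75 (SD, n = 3) in Control HSC, 22.5% ± 6.28 (n = 3) in Dnmt3aKO HSC, 19.8% ± 1.76 (n = 4) in Tet2KO HSC, 20.5% ± 0.719 (n = 4) in Control RP and 20.5% ± 1.45 (n = 4) in Tet2KO RP. The ranges of all 5 groups overlapped. Without the libraries numbered 4, the 7 HSC libraries lay between 17.6% and 20.4%, and the 8 RP libraries between 19.6% and 22.6%. A share compares reads within a library, so fewer cells of a type and less RNA per cell cannot be told apart.

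**Figure D1:**
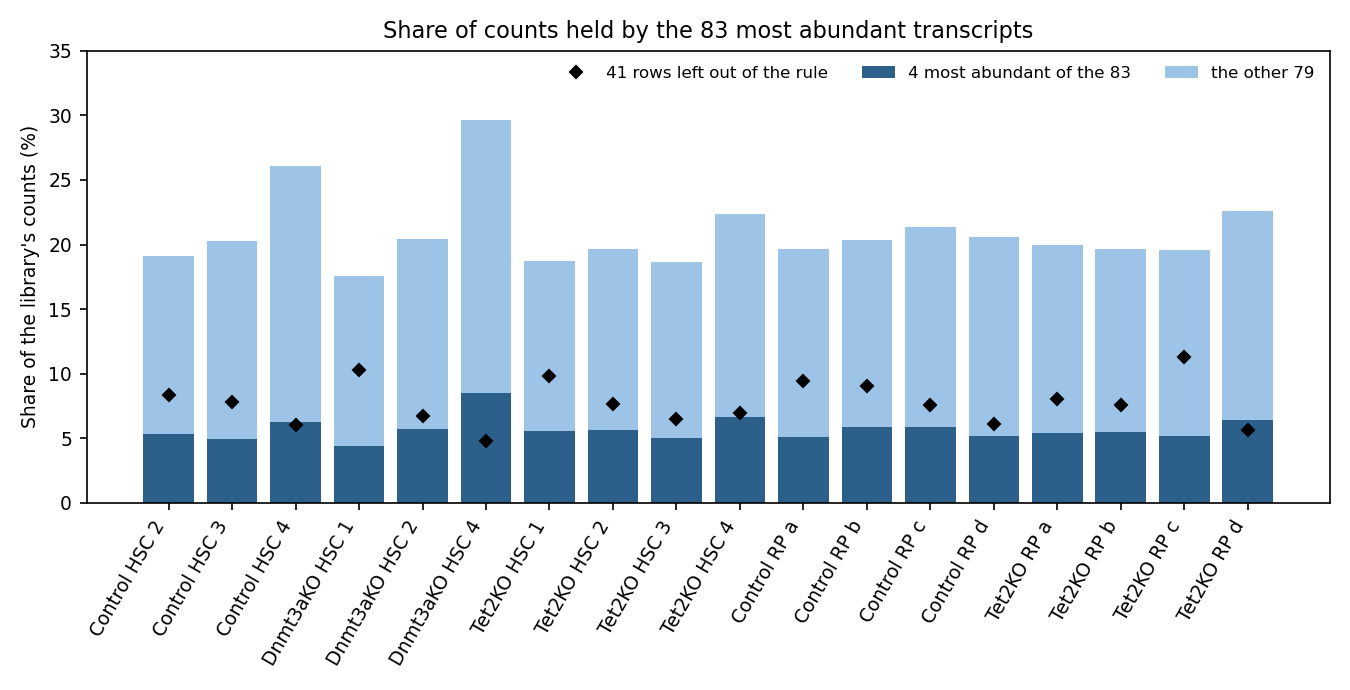
Bars give the share of each library's counts, in percent, held by the 83 transcripts in the 18 libraries, with the 4 most abundant in dark blue; diamonds give the share of the identifiers left out. The HSC libraries numbered 4 stood highest within their groups, up to 29.6% in Dnmt3aKO HSC 4.

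The identifiers left out took a mean of 7.75% of counts, from 4.79% in Dnmt3aKO HSC 4 to 11.3% in Tet2KO RP c. Dnmt3aKO HSC 4 thus had both the lowest share of left-out counts and the highest share of the 83 transcripts. A further 1687 transcripts with a mean of 100 to under 1000 CPM held 43.0% of counts, and 6678 transcripts of 10 to under 100 CPM held 21.6%. These classes serve below as a scale for the 83.

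The counts were concentrated at the top of the list. The first 4 transcripts held 5.69% of all counts and the first 10 held 8.45%, while 53 of the 83 had means of 1000 to under 2000 CPM. Levels were not divided by transcript length, so the order is one of reads, not of molecules. ENSMUST00000102476.4 led with a mean of 17648 CPM (range 10018 to 25585) and was the most abundant of the 83 in 11 of 18 libraries. ENSMUST00000100497.10 followed with 14825 CPM (3843 to 38005) and ranked first in 4 libraries. ENSMUST00000029078.8 had 14732 CPM (9475 to 26607) and ranked first in 2. The order of these 3 thus changed from library to library, and their ranges overlapped. ENSMUST00000001566.9 had a mean of 9700 CPM (4003 to 22542), and its range overlapped those of the 3 above it. Below these 4 the mean levels dropped: ranks 5 to 10 had means of 3391 to 5034 CPM. In single libraries the division was less sharp. ENSMUST00000001566.9 was among the first 4 of the 83 in 10 of 18 libraries, and its lowest rank was 9.

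Among ranks 5 to 10, transcripts with nearly equal means had very different spreads. ENSMUST00000047864.10, with a mean of 5034 CPM, stayed between 3755 and 6193 CPM. ENSMUST00000035061.8, with a mean of 4910 CPM, ran from 138 to 32834 CPM. In Control HSC 4 it was the most abundant of the 83. ENSMUST00000025563.6, with a mean of 4851 CPM, ran from 397 to 10931 CPM. ENSMUST00000034966.8 (mean 4764 CPM) and ENSMUST00000000356.9 (mean 3391 CPM) had narrower ranges, 3611 to 7148 and 2645 to 5932 CPM. ENSMUST00000165117.7 (mean 4637 CPM, range 1565 to 9655) separated the cell types and is described with them.

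At the lower limit, ENSMUST00000000175.5 (mean 1021 CPM) and ENSMUST00000028467.5 (mean 1011 CPM) were just inside. ENSMUST00000031727.9 (mean 989 CPM) and ENSMUST00000102781.9 (mean 988 CPM) were just outside. ENSMUST00000028467.5 entered with a range of 3.84 to 8531 CPM, so its mean rested on few libraries. Of the 83, 28 reached 1000 CPM in all 18 libraries and 8 did so in 9 or fewer. Each library had 55 to 75 of the 83 at or above 1000 CPM.

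**Figure D2:**
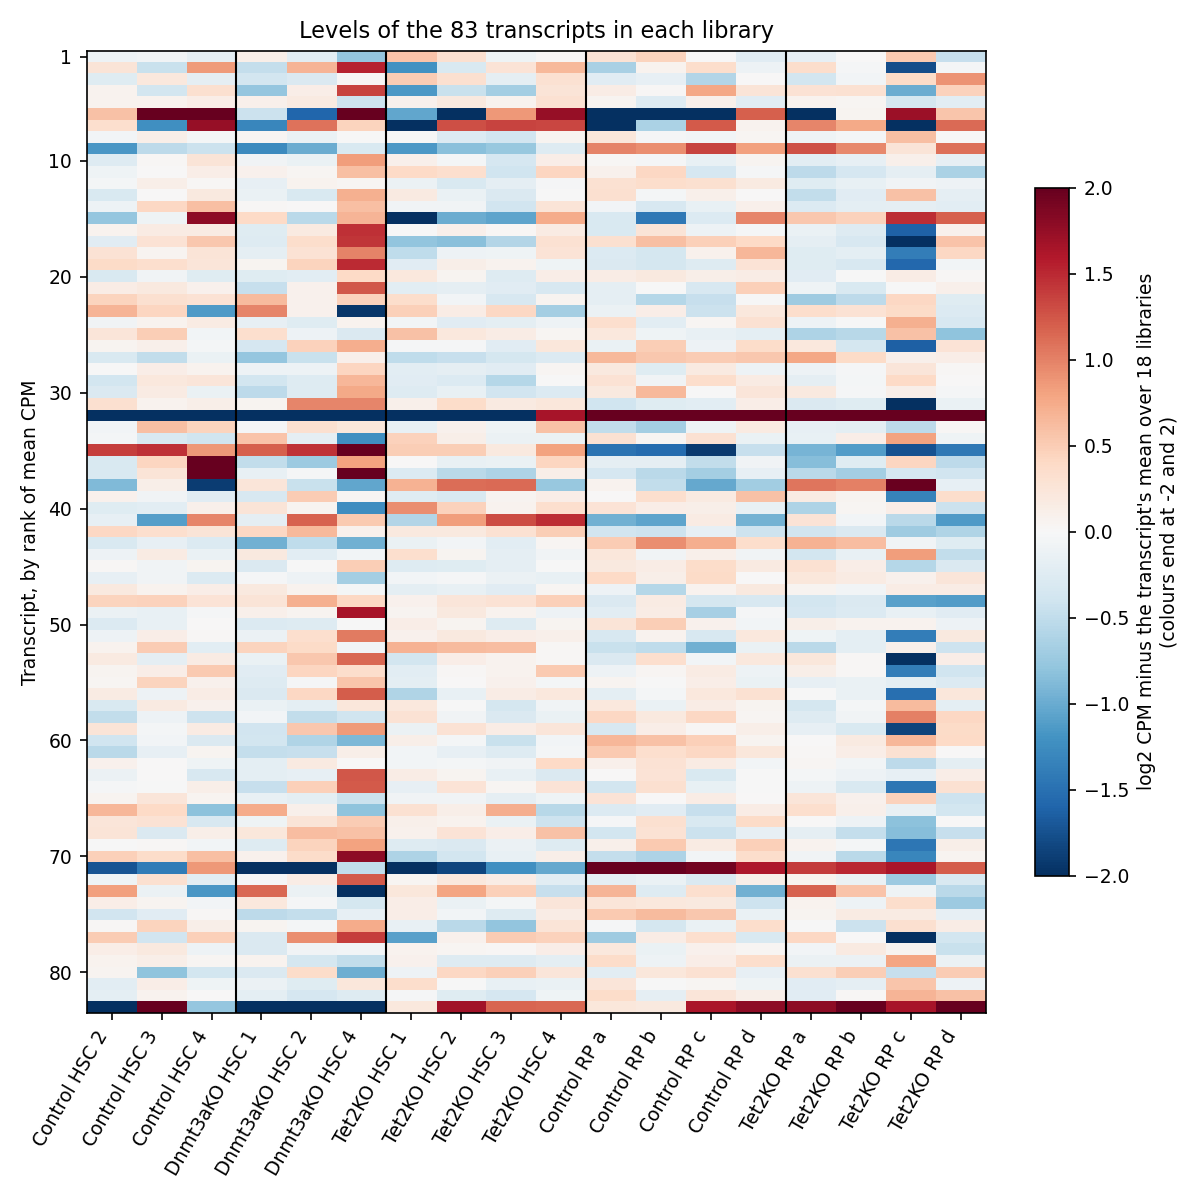
Rows are the 83 transcripts in order of mean CPM, columns are the 18 libraries, and colour gives log2 CPM minus the transcript's mean over the libraries, with colours ending at -2 and 2. Most rows are pale, a few rows differ between the HSC columns on the left and the RP columns on the right, and the columns of Dnmt3aKO HSC 4 and Tet2KO RP c stand out over many rows.

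Stability was measured first as the ratio of a transcript's highest to its lowest library. This ratio was under 2 for 14 of the 83, 2 to under 3 for 29, 3 to under 10 for 29, and 10 or more for 11. The median ratio was 2.97, beside 2.57 in the class of 100 to under 1000 CPM and 5.46 in the class of 10 to under 100 CPM. The most abundant transcripts were thus no steadier by this measure than the class below them. A high value in a single library raises both the mean and this ratio. The ratio of the 83 is thus partly built into their choice, and the same holds for the second measure below.

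The second measure was the coefficient of variation (CV, SD over mean) between libraries of the same group, as the plain mean of the 5 groups' values. Its median was 21.9% for the 83, beside 19.8% for the class of 100 to under 1000 CPM and 34.9% for that of 10 to under 100 CPM. It was under 20% for 33 transcripts, 20% to 50% for 42 and over 50% for 8. The counting error of a transcript at 1000 CPM in the smallest library was 1.64%, far below this spread. Without the 3 HSC libraries numbered 4 the medians were 17.7%, 17.3% and 28.4%. By group, the median CV of the 83 was 13.3% in Control HSC, 31.4% in Dnmt3aKO HSC, 15.6% in Tet2KO HSC, 16.6% in Control RP and 28.8% in Tet2KO RP. In the class of 100 to under 1000 CPM it was 17.0%, 23.4%, 17.7%, 15.5% and 23.0% in the same order of groups. The value of the 83 for Dnmt3aKO HSC was 15.7% without library 4, beside 14.2% in that class.

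The steadiest transcript was ENSMUST00000067664.9, with a CV of 6.58%, followed by ENSMUST00000025774.9 with 9.77%. ENSMUST00000025774.9 lay between 1018 and 1732 CPM in all 18 libraries. The least steady were ENSMUST00000035061.8, with a CV of 119%, and ENSMUST00000028467.5, with 79.0%. ENSMUST00000035061.8 had 2613, 10008 and 32834 CPM in Control HSC 2, 3 and 4, so even the libraries of 1 group spread widely. It had 1301, 583 and 15707 CPM in Dnmt3aKO HSC 1, 2 and 4, and 848, 339, 3192 and 5843 CPM in Tet2KO HSC 1 to 4. In Control RP a to d it had 138, 302, 282 and 3991 CPM, and in Tet2KO RP 323, 1820, 5709 and 2551 CPM. Its groups all overlapped.

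**Figure D3:**
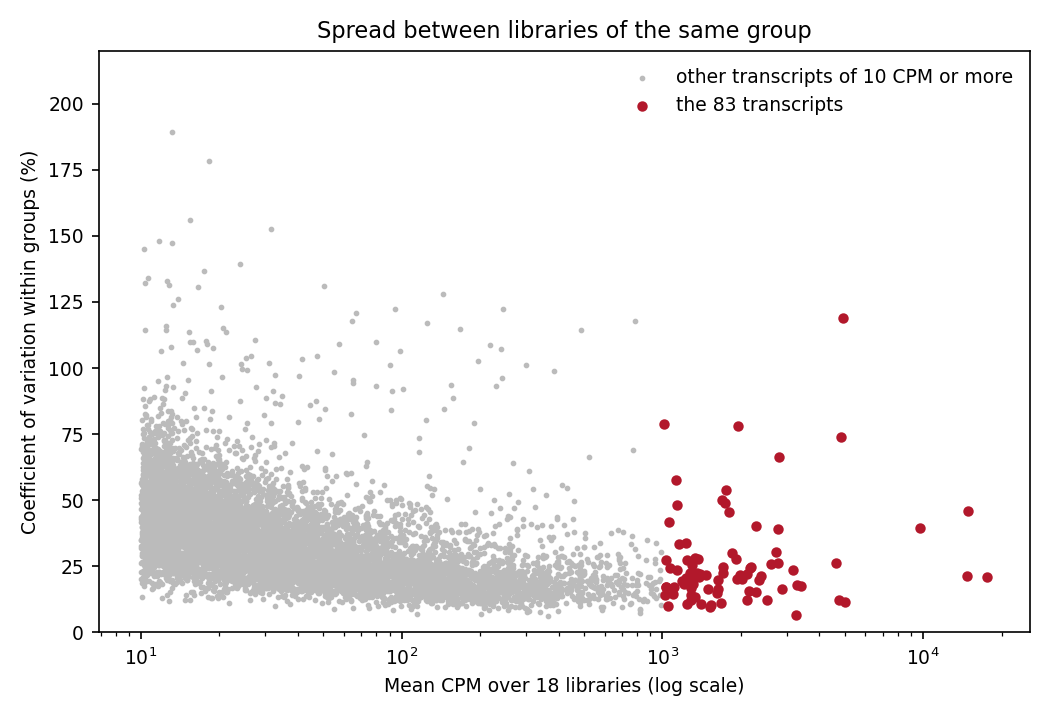
Each point is a transcript of 10 CPM or more, with its mean CPM on a log scale and its coefficient of variation within groups in percent. The 83 transcripts, in red, had a median of 21.9%, near that of the class of 100 to under 1000 CPM (19.8%), with single points up to 119%.

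Part of this spread belonged to single libraries. The 83 were chosen by means over all 18 libraries, so a high value in a single library helped a transcript to enter. Where a library is the highest, an excess of the 83 over the class is thus partly built into their choice. The counts below are given as a description. Dnmt3aKO HSC 4 was the highest of all 18 libraries for 32 of the 83 transcripts (38.55%), beside 12.98% of the class of 100 to under 1000 CPM. Tet2KO RP c was the lowest for 23 of the 83 (27.71%), beside 22.11% of that class. For 18 of the 83 (21.69%) both held at once, beside 6.05% of the class. The reverse, highest in Tet2KO RP c and lowest in Dnmt3aKO HSC 4, held for 3 of the 83 (3.61%), beside 2.67% of the class. Tet2KO RP c was also the highest library for 13 of the 83 (15.66%, class 13.04%), and Dnmt3aKO HSC 4 the lowest for 11 (13.25%, class 18.26%). ENSMUST00000172107.7, taken as an example after its values were seen, had 7141 CPM in Dnmt3aKO HSC 4, 841 CPM in Tet2KO RP c and 2094 to 3104 CPM in the other 16 libraries. ENSMUST00000023507.12, chosen in the same way, had 2833, 294 and 988 to 1854 CPM. Outside these 2 libraries, both transcripts were steady. The second-ranked ENSMUST00000100497.10 showed the same order, with 38005 and 3843 CPM and 5665 to 23614 CPM in the others.

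The HSC libraries numbered 4 also moved together. Here too, high values in these libraries helped transcripts to enter the 83, so an excess over the class is partly built in. For 20 of the 83 transcripts (24.1%), library 4 was the highest of its group in all 3 HSC genotypes, beside 9.37% of the class of 100 to under 1000 CPM. For 7 of the 83 (8.43%) it was the lowest in all 3, beside 11.38%. Against the mean of the other libraries of its group, ENSMUST00000035061.8 was 5.20-fold higher in Control HSC 4, 16.7-fold in Dnmt3aKO HSC 4 and 4.00-fold in Tet2KO HSC 4. ENSMUST00000006235.8, an example chosen after its values were seen, had 7778 CPM in Control HSC 4 against 1021 and 1520 CPM, and 7409 CPM in Dnmt3aKO HSC 4 against 1149 and 1253 CPM. In Tet2KO HSC 1 to 4 it had 1046, 874, 828 and 1372 CPM. ENSMUST00000198477.1, chosen likewise, was lower: 428 CPM against 1702 and 886 in Control HSC, 166 against 2123 and 890 in Dnmt3aKO HSC, and 695 against 1127 to 1668 in Tet2KO HSC. These libraries also had the fewest transcripts detected at equal depth, as given above. The part of that difference in the levels of the 83 was not tested.

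Differences between groups were tested on the counts of all 26820 transcripts that passed the filter on low counts, with edgeR's quasi-likelihood test and Benjamini-Hochberg adjustment at 0.05. All 83 passed the filter. Of the 83, 70 had mean levels of at least 1000 CPM in both cell types, 6 in HSC only and 7 in RP only. The last 13 entered through the cell type in which they are high, so a difference between cell types was built into their choice, and the counts called there support nothing about the 83. Between Control RP and Control HSC, 3 of the 83 were called (3.61%), 2 higher and 1 lower in RP, beside 1.90% of all transcripts tested (0.802% higher, 1.10% lower). Of these 3, 1 reached 1000 CPM in both cell types. The median log2 fold change of the 83 was -0.02, beside 0.10 over all transcripts tested. Without the 3 HSC libraries numbered 4, 7 were called, beside 2.51% of all. Without Control HSC 2 or Control HSC 3, 1 was called, beside 0.879% and 1.31% of all. The libraries of both groups did not overlap for 18 of the 83 (21.7%), 13 higher and 5 lower in RP, beside 16.2% of all transcripts tested (10.7% higher, 5.44% lower).

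Between Tet2KO RP and Tet2KO HSC, 6 of the 83 were called (7.23%), 3 higher and 3 lower in RP, beside 1.81% of all transcripts tested (0.776% higher, 1.03% lower). Their median log2 fold change was 0.00, beside 0.02 over all. Of the 6, 3 reached 1000 CPM in both cell types. Without Tet2KO HSC 2 or Tet2KO RP d, 3 were called, beside 1.19% and 1.12% of all. The libraries did not overlap for 13 of the 83 (15.7%), 7 higher and 6 lower, beside 8.69% (4.23% higher, 4.46% lower). These groups share no library with the control comparison. All 3 transcripts called in the controls were also called in Tet2KO in the same direction, which is 3 of 3 and 3 of 6. Of these 3, 1 entered through HSC only and 1 through RP only, by means over the libraries of all genotypes. Their shared direction was thus partly built into their choice. Both comparisons also used the spread estimated over all 18 libraries.

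With RP set against HSC over Control and Tet2KO together, 10 of the 83 were called (12%), 6 higher and 4 lower in RP, beside 5.97% of all transcripts tested (3.00% higher, 2.97% lower). The libraries did not overlap for 7 of the 83 (8.43%), 5 higher and 2 lower, beside 2.64% (1.33% higher, 1.32% lower). Of the 10, 7 reached 1000 CPM in both cell types. At an unadjusted p under 0.05 there were 21 of the 83, and 5092 of all 26820. Without the filter on low counts, edgeR called 14 of the 83 in the Control comparison (1.69% of all), 15 in the Tet2KO comparison (1.18% of all) and 23 in the joint one (3.07% of all). Most of the 83 did not pass the test between cell types, and those that did went in both directions.

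The transcript with the largest difference was ENSMUST00000103410.2. With a mean of 44.5 CPM over the HSC libraries and 4322 CPM over the RP libraries, it is among the 83 only through RP, so its difference is no independent finding. It had 7.68, 6.04 and 8.99 CPM in Control HSC, and 2481, 2297, 6539 and 727 CPM in Control RP a to d. In Tet2KO HSC 1 to 4 it had 5.97, 4.69, 4.91 and 390 CPM, and in Tet2KO RP a to d 3867, 2612, 3519 and 12536 CPM. Dnmt3aKO HSC 1, 2 and 4 had 5.69, 6.70 and 4.79 CPM. All HSC libraries but Tet2KO HSC 4 were thus below 10 CPM, while every RP library exceeded every HSC library. The log2 fold change of RP against HSC was 8.63 (SE 1.71, edgeR adjusted p = 0.0094) in Control and 5.70 (SE 1.30, edgeR adjusted p = 0.0261) in Tet2KO. Over both it was 7.16 (SE 1.10, edgeR adjusted p = 3.42e-04). Without the HSC libraries numbered 4, the Tet2KO value was 10.22 (edgeR adjusted p = 6.66e-06) and that over both was 9.55. Leaving out Tet2KO HSC 4 alone gave 10.25 and 9.44. The Control value was 7.87 without Control RP c, and the Tet2KO value 4.84 without Tet2KO RP d. The Control call was lost without Control HSC 2 (edgeR adjusted p = 0.0654) and without Control HSC 3 (0.0555). The Tet2KO call was lost without Tet2KO HSC 1, 2 or 3 or Tet2KO RP d, with edgeR adjusted p-values of 0.0532 to 0.0795, and when only the groups compared were fitted (0.0940).

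ENSMUST00000165117.7, of rank 9, was also higher in RP, from a high level in HSC. It had 1694, 2637 and 2832 CPM in Control HSC and 7574, 7276, 9655 and 6733 CPM in Control RP a to d. It had 1715, 2136, 2245 and 3163 CPM in Tet2KO HSC 1 to 4, and 9189, 7375, 4548 and 8126 CPM in Tet2KO RP a to d. Dnmt3aKO HSC 1, 2 and 4 had 1565, 1917 and 3084 CPM, within the range of the other HSC libraries or just below it. No HSC library reached any RP library. The log2 fold change of RP against HSC was 1.66 (SE 0.38, edgeR adjusted p = 0.0263) in Control and 1.67 (SE 0.34, edgeR adjusted p = 0.0124) in Tet2KO. Over both it was 1.66 (SE 0.26, edgeR adjusted p = 3.69e-04), or 3.17-fold. The Control call was lost without Control HSC 2 or 3 or without Control RP a, b or c, with edgeR adjusted p-values of 0.0536 to 0.138.

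ENSMUST00000038845.9 had 2820, 2739, 2496 and 2011 CPM in Control RP a to d, and 1714, 1865, 2029 and 1517 CPM in Tet2KO RP a to d. It had 197, 247 and 1187 CPM in Control HSC 2, 3 and 4, 130, 137 and 464 CPM in Dnmt3aKO HSC 1, 2 and 4, and 154, 183, 277 and 321 CPM in Tet2KO HSC 1 to 4. It entered through RP (mean 2149 CPM over RP libraries, 330 CPM over HSC libraries), so its difference is no independent finding. Each RP library exceeded each HSC library, and in every HSC genotype the highest value was in library 4. It was 2.49 higher in RP on the log2 scale over both genotypes (SE 0.44, edgeR adjusted p = 0.00123), or 5.62-fold, and 2.94 (SE 0.59, edgeR adjusted p = 0.0102) in Tet2KO. Over both genotypes the value was 3.27 without Control HSC 4 and 3.39 without all HSC libraries numbered 4. In Control the difference was 2.04 (SE 0.63, edgeR adjusted p = 0.113), with Control HSC 4 nearest to the RP libraries.

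Lower in RP was ENSMUST00000060792.5. It had 3337, 3502 and 2336 CPM in Control HSC, 2933, 3474 and 6105 CPM in Dnmt3aKO HSC, and 1804, 1800, 1464 and 2226 CPM in Tet2KO HSC. In Control RP a to d it had 461, 442, 338 and 926 CPM, and in Tet2KO RP a to d 668, 592, 383 and 474 CPM. It entered through HSC (mean 2898 CPM over HSC libraries, 535 CPM over RP libraries), so its difference is no independent finding. The lowest HSC library, at 1464 CPM, was above the highest RP library, at 926 CPM. The log2 fold change of RP against HSC was -2.52 (SE 0.36, edgeR adjusted p = 4.40e-04) in Control and -1.78 (SE 0.33, edgeR adjusted p = 0.00584) in Tet2KO. Over both it was -2.15 (SE 0.24, edgeR adjusted p = 1.34e-05), or 4.43-fold lower. This call held in each of the 22 alternatives tried for it, none of which changed how the transcript was chosen.

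A smaller and steadier difference was that of ENSMUST00000034740.14. It had 2166, 2052 and 1940 CPM in Control HSC, 2172, 2530 and 1723 CPM in Dnmt3aKO HSC, and 1852, 1851, 2013 and 2272 CPM in Tet2KO HSC. In Control RP a to d it had 1248, 1211, 1440 and 1221 CPM, and in Tet2KO RP a to d 1249, 1332, 990 and 1069 CPM. The cell types did not overlap. Over both genotypes it was 1.66-fold lower in RP (log2 -0.73, SE 0.13, edgeR adjusted p = 0.00122), also in each of 22 alternatives. ENSMUST00000022921.6 was called lower in the Tet2KO comparison (log2 -0.94, SE 0.22, edgeR adjusted p = 0.0351). That call was lost in 8 of 15 alternatives, among them those without Tet2KO HSC 2, 3 or 4 and without Tet2KO RP a, c or d, with edgeR adjusted p-values of up to 0.130. The other called transcripts of the comparison over both genotypes had log2 fold changes of 0.57 to 0.80 where higher and -0.76 to -0.68 where lower.

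**Figure D4:**
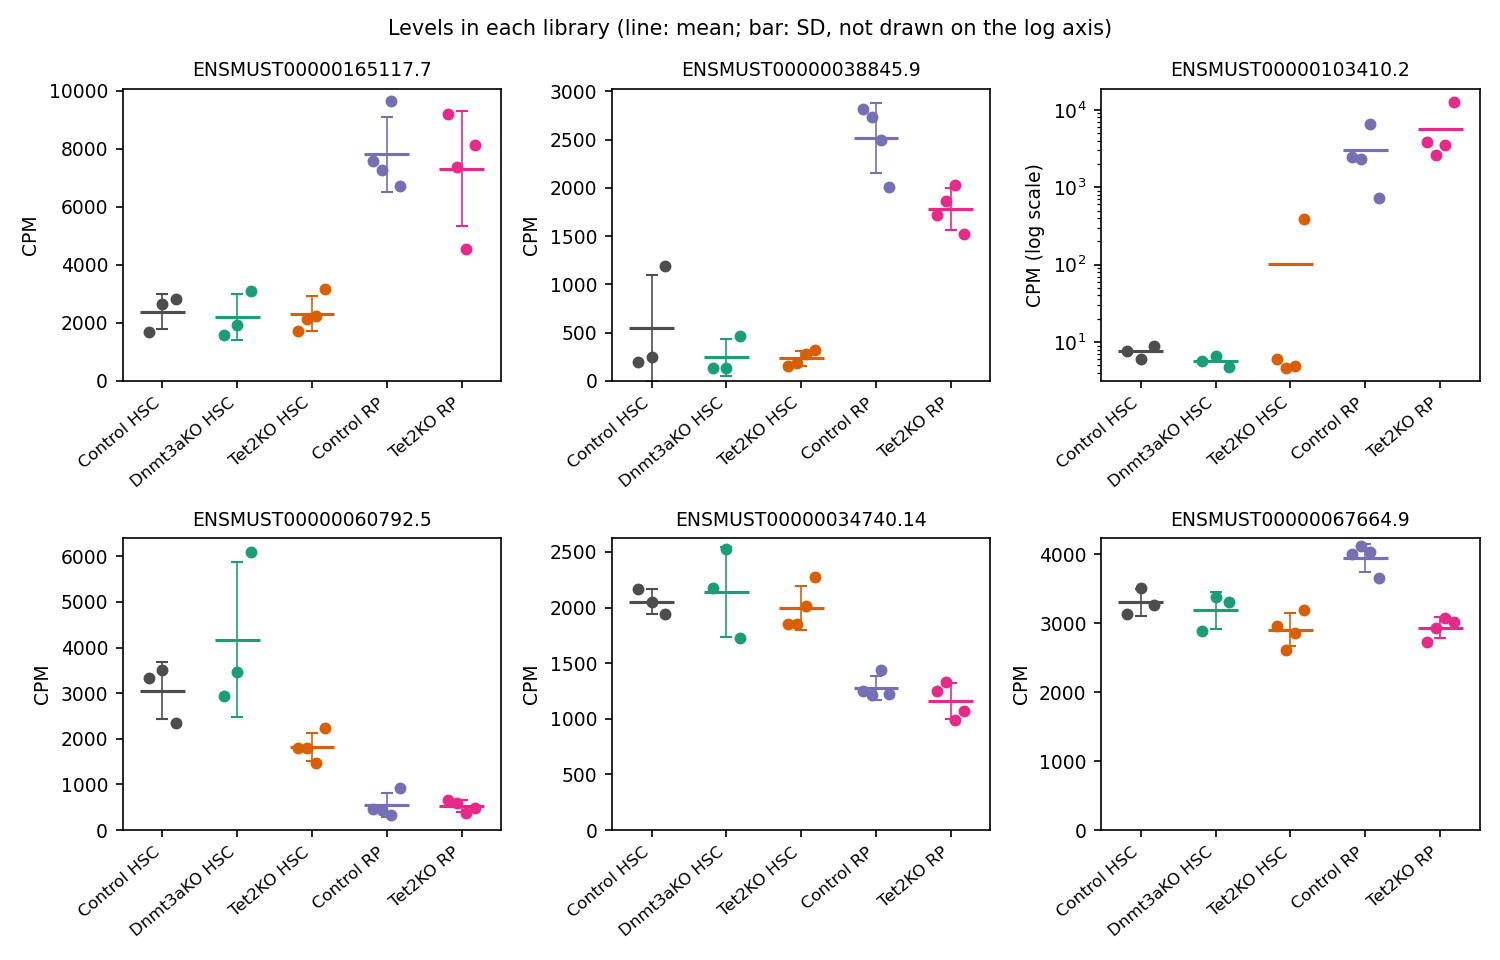
Points give the CPM of 6 of the transcripts in each library by group, the line is the group mean and the bar its SD; ENSMUST00000103410.2 is on a log axis, without bars. The RP groups stand above the HSC groups for ENSMUST00000165117.7, ENSMUST00000038845.9 and ENSMUST00000103410.2 and below them for ENSMUST00000060792.5 and ENSMUST00000034740.14, while ENSMUST00000067664.9 lies within 2614 to 4117 CPM throughout.

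Between Tet2KO and Control, none of the 83 was called in either cell type by edgeR's quasi-likelihood test at the same threshold, and none by DESeq2. In HSC, edgeR called 0.198% of all transcripts tested and DESeq2 2.52%. At an unadjusted p under 0.05 in edgeR's test there were 7 of the 83, and 3017 of all 26820. Without the filter on low counts, edgeR called 11 of the 83 in HSC (1.25% of all) and 6 in RP (0.3% of all). In HSC libraries alone, a block on the number in the labels gave 1 call (0.0423% of all). The same fit without the block gave 0 (0.0635% of all). In RP with the filter, edgeR called 0.134% of all and DESeq2 0.447%. In edgeR's test in RP, 4 of the 83 had an unadjusted p under 0.05, as did 1024 of all. The median SE of the log2 fold change of the 83 was 0.30 in HSC and 0.28 in RP. Larger differences of single members were not called, but some of these members had larger SEs of their own, as given below. The difference between the Tet2KO effects in RP and in HSC was called for 0 of the 83 by edgeR, beside 0% of all transcripts tested. DESeq2 also called 0 of the 83, beside 0.0522% of all. At an unadjusted p under 0.05 in edgeR's test there were 3 of the 83 and 1435 of all.

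Most of the 83 had fitted log2 fold changes below 0 in Tet2KO, without passing the test. In HSC this held for 64 of 83 (77.11%), beside 67.62% of the class of 100 to under 1000 CPM and 44.38% of all transcripts tested. In RP it also held for 64 of 83, beside 75.33% of the class and 47.63% of all. In both at once it held for 55 of 83 (66.27%), beside 53.02% and 24.73%, and 10 were above 0 in both. The medians of the 83 were -0.18 in HSC and -0.20 in RP, beside 0.10 and 0.03 over all. The class just below the 83 thus leaned the same way. From library to library within groups, the median of the 83 had an SD of 0.23 on the log2 scale. Both medians of the 83 were smaller than this, but it is a spread of single libraries, not of a difference between group means. The SD also made no allowance for the group means taken out, so it is somewhat low. Transcripts of the same library share its scaling, so these counts are not of independent members. The count depended on the scaling. With total counts in place of TMM factors, 47 of 83 were below 0 in HSC (median -0.04, beside 0.22 over all) and 58 of 83 in RP (median -0.13, beside 0.10 over all). Without Control HSC 4, 46 were below 0 in HSC (median -0.05), and without all 3 HSC libraries numbered 4, 64 (median -0.23).

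In HSC, the Tet2KO and Control libraries did not overlap for 7 of the 83 (8.43%), all 7 lower in Tet2KO, beside 7.94% of all transcripts tested in either direction and 1.74% in the lower direction. One was ENSMUST00000060792.5, with 1464 to 2226 CPM in Tet2KO HSC and 2336 to 3502 CPM in Control HSC (log2 -0.84, SE 0.35, edgeR adjusted p = 0.354). In RP, 1 of the 83 (1.20%) did not overlap, beside 4.50%. This was the steadiest transcript, ENSMUST00000067664.9, with 4004, 4117, 4032 and 3657 CPM in Control RP a to d and 2729, 2925, 3069 and 3025 CPM in Tet2KO RP a to d. Every Tet2KO RP library was lower, with a log2 fold change of -0.51 (SE 0.19, unadjusted p = 0.0160 in edgeR's test, adjusted p = 1). In HSC it had 3130, 3517 and 3269 CPM in Control, 2963, 2614, 2864 and 3193 CPM in Tet2KO, and 2880, 3377 and 3305 CPM in Dnmt3aKO, where the groups overlapped.

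One member had high values in Tet2KO in both cell types without passing the test, and is given because its values were noticed. ENSMUST00000099683.1 had 753, 1494 and 370 CPM in Control HSC 2, 3 and 4 and 2235, 2999, 3025 and 817 CPM in Tet2KO HSC 1 to 4. It had 1458, 982, 684 and 856 CPM in Control RP a to d and 2898, 2778, 5446 and 1230 CPM in Tet2KO RP a to d. In each cell type, 3 of the 4 Tet2KO libraries exceeded all controls. Its mean was 872 CPM in Control HSC, 995 CPM in Control RP and 1109 CPM in Dnmt3aKO HSC. In Tet2KO it was 2269 CPM in HSC and 3088 CPM in RP. The high Tet2KO values helped this transcript to reach the limit of 1000 CPM. Its difference is thus partly built into its choice and is no independent finding. The log2 fold changes were 1.24 (SE 0.47, edgeR adjusted p = 0.293) in HSC and 1.54 (SE 0.43, edgeR adjusted p = 0.413) in RP.

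Between Dnmt3aKO HSC and Control HSC, 0 of the 83 were called by edgeR, beside 0.0149% of all transcripts tested. At an unadjusted p under 0.05 there were 3 of the 83, and 2079 of all 26820. DESeq2 called 1 (0.649% of all), and edgeR without the filter called 5 (0.362% of all). The median log2 fold change of the 83 was 0.08, beside 0.00 over all. It was -0.22 without Dnmt3aKO HSC 4 and -0.11 without all 3 HSC libraries numbered 4, so its sign rested on that library. The libraries did not overlap for 3 of the 83 (3.61%), beside 7.38%.

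Between Dnmt3aKO HSC and Tet2KO HSC, 0 of the 83 were called by edgeR, beside 0.138% of all, while DESeq2 called 4 (2.06% of all). The Dnmt3aKO libraries are those of the comparison above. At an unadjusted p under 0.05 there were 20 of the 83, and 2963 of all 26820. Without the filter edgeR called 23 (0.935% of all). The median of the 83 was 0.31, beside -0.13 over all, and 0.00 without Dnmt3aKO HSC 4. With total counts as the scale it was 0.10, beside -0.27 over all. The libraries did not overlap for 4 of the 83 (4.82%), beside 7.34%. One of them was ENSMUST00000060792.5, at 2933 to 6105 CPM in Dnmt3aKO HSC and 1464 to 2226 CPM in Tet2KO HSC (log2 1.44, SE 0.35, edgeR adjusted p = 0.131).

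The member with the largest fitted difference here was ENSMUST00000028467.5, the last of the 83. It had 9.15, 14.1 and 8.41 CPM in Dnmt3aKO HSC 1, 2 and 4, and 3.84, 1349 and 161 CPM in Control HSC 2, 3 and 4. Tet2KO HSC 1 to 4 had 317, 882, 617 and 608 CPM. In Control RP a to d it had 321, 315, 852 and 945 CPM, and in Tet2KO RP a to d 946, 1461, 860 and 8531 CPM. The Dnmt3aKO libraries were all below the Tet2KO libraries, but Control HSC spanned both. The log2 fold change of Dnmt3aKO was -5.69 against Tet2KO HSC (SE 1.32, edgeR adjusted p = 0.124) and -5.54 against Control HSC (SE 1.33, edgeR adjusted p = 0.243).

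**Figure D5:**
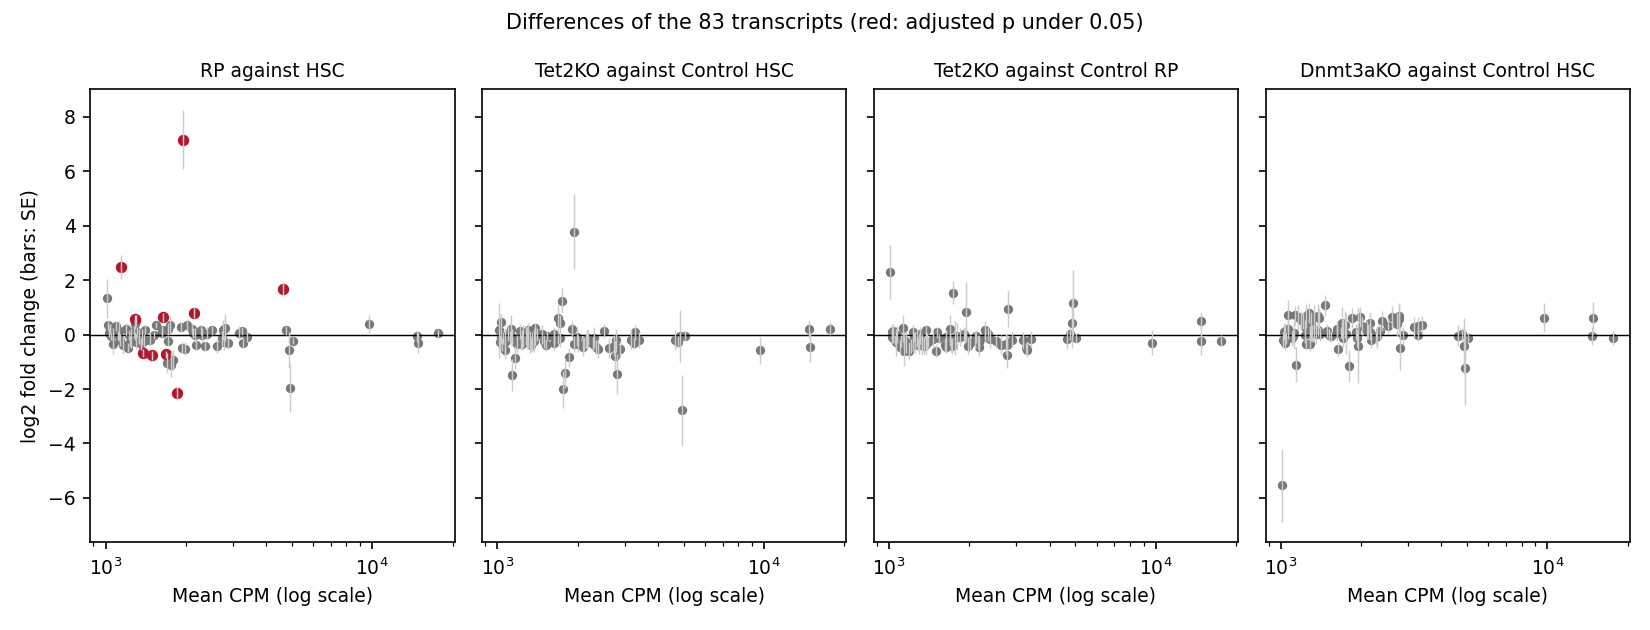
Each point is one of the 83 transcripts, with its mean CPM on a log scale and its log2 fold change, the bar is the SE, and red marks an adjusted p under 0.05. Red points occur in the comparison of RP with HSC (10 of 83) and in none of the 3 comparisons with knockouts that are drawn.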

How the data were processed

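The authors deposited 1 table of raw counts by Ensembl transcript, whose header does not say how they were made. The build mm10 and, among other tools, HTSeq 0.8.0, featureCounts, STAR 2.0.4 and edgeR 3.9 appear in the submitters' processing notes. For these counts, the tool, strand setting and handling of shared exons are not given in the sources at hand, so counts of transcripts with shared exons or near-identical copies are uncertain. Of 36 columns, 18 matched samples and 18 were not used. HSC columns carry no cell type and were taken as HSC because the others carry the RP name. RP columns were assigned to their group only. The 18 ATAC-seq samples were not analysed here.

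CPM was computed from column totals. The 83 transcripts and all lists were chosen with earlier results of these data known. Of the libraries, 0 pairs were identical, and libraries of a group had a chi-square of at least 14.5 per degree of freedom. Tests used edgeR 4.0.16 in R 4.3.3 (filterByExpr by group, minimum count 10, minimum total 15, TMM, quasi-likelihood, all 18 libraries, group as the only term), which kept 26820 transcripts with 98.92% of counts. Fold changes used edgeR's prior count of 0.125, and the SE is the fold change over the square root of F. The scripts were tested on simulated data. DESeq2 1.42.0, other scalings, no filter, a block on replicate number and leaving out libraries were alternatives.

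Lists by gene function and cell type markers had been planned and were not run, since identifiers are not paired with genes. Named transcripts were the 10 most abundant, the 2 with the lowest and the 2 with the highest CV, the 2 on either side of the limit and, for each comparison, up to 2 in each direction with the largest fold change among those past the threshold whose libraries did not overlap. Those named outside this rule are said to be chosen after their values were seen, or are described because a count or pattern fell on them.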

Additional observations from a re-analysis of the deposited data

Results flagged for a closer look

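In each group of 4 libraries, the highest and lowest library were compared with the others for the transcripts named above and for the share of counts. A library was marked where its gap to the nearest other, divided by the whole range of the group, exceeded the critical value of Dixon's test for 4 samples. Of 60 sets of 4 tested, 10 were marked. Chance marks about 1 in 20 among independent sets of normally distributed values. The transcripts tested include those named for a high CV or a large difference, and the sets share libraries. The 10 can therefore not be set against that rate.

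Tet2KO HSC 1 had 397 CPM of ENSMUST00000025563.6, while the other 3 libraries had 8005 to 8336 CPM. Tet2KO HSC 4 had 390 CPM of ENSMUST00000103410.2, with 5.97 CPM in the next library. Control RP d had 3991 CPM of ENSMUST00000035061.8, with 302 CPM in the next. Control RP b had 1592 CPM of ENSMUST00000022921.6, with 1159 CPM in the next. Control RP c had 1440 CPM of ENSMUST00000034740.14, with 1248 CPM in the next. Among the Tet2KO RP libraries, c was highest for ENSMUST00000034966.8 (7148 CPM, next 4729) and for ENSMUST00000000356.9 (3562 CPM, next 2980). Library d of the same group was highest for ENSMUST00000103410.2 (12536 CPM, next 3867), for ENSMUST00000028467.5 (8531 CPM, next 1461) and for the share of counts held by the 83 transcripts (22.6%, next 19.95%).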

How the results depend on the processing

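No result changed its direction with a call. With a limit of 500 CPM, 245 transcripts would be members, and with 2000 CPM, 30. As a share of counts outside the left-out identifiers, the 83 held 22.3% in Control RP and 22.3% in Tet2KO RP. Without the filter on low counts, edgeR called 14 of the 83 between Control RP and Control HSC, 15 between Tet2KO RP and Tet2KO HSC, 23 over both, 11 between Tet2KO and Control HSC, 6 between Tet2KO and Control RP, 5 between Dnmt3aKO and Control HSC, 23 between Dnmt3aKO and Tet2KO HSC and 6 for the difference of Tet2KO effects, beside 0.3% to 3.07% of all transcripts. The cause was not tested. DESeq2 called 7 between Control RP and Control HSC (5.59% of all), 1 between Dnmt3aKO and Control HSC (0.649%) and 4 between Dnmt3aKO and Tet2KO HSC (2.06%). It gave no adjusted p for ENSMUST00000038845.9. Between Control RP and Control HSC, 7 were called with total counts as the scale (1.88% of all) and 7 without the HSC libraries numbered 4 (2.51%). Fitting only the groups compared gave 3 calls between Tet2KO RP and Tet2KO HSC (2.05% of all) and 1 between Dnmt3aKO and Tet2KO HSC (0.0445%). Leaving out 1 library gave 1 to 4 calls between Control RP and Control HSC, beside 0.879% to 1.86% of all. It gave 3 to 6 between Tet2KO RP and Tet2KO HSC (1.12% to 1.52% of all) and 8 to 11 over both (3.86% to 5.83%). Same-numbered HSC libraries deviated from their group means with correlations of 0.0389 to 0.0993 for numbers 1 to 3 and 0.200 to 0.251 for number 4. The libraries numbered 4 deviated together and the others hardly did, so the numbers were not taken to pair all libraries. With the replicate block, in HSC libraries alone, 1 of the 83 was called between Tet2KO and Control HSC (0.0423% of all), against 0 in the same fit without it, and 0 in the other HSC comparisons. The numbers of the RP columns do not all occur in the titles, so these columns were assigned to groups only and no block was fitted there. The median CV was 26.3% on TMM-scaled CPM. The counting error at the limit was 1.64%, which does not cover library preparation.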
